A study of Mus musculus with 12 samples.

Results

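The genes described here are the DNA replication and repair genes measured in sorted mouse blood stem and progenitor cells of mice with and without loss of Erg, a transcription factor of the ETS family. They were chosen by name: gene symbols that match a fixed pattern for licensing factors, replicative polymerases, clamp loaders, single-strand binding proteins and the Rad, Xrcc, Fanc, Msh, Ercc and related repair families. The rule took no measured value, and it found 54 genes among the 9984 with a single-symbol probe set, 21 with a role in replication and 33 with a role in repair or another role. Pcna, most Mcm subunits and the Brca genes are not analysed here.

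Every cell division begins with origin licensing, in which the origin recognition complex and Cdt1 load the MCM helicase, after which the GINS complex joins the helicase and polymerases copy both strands behind it. Damaged or broken DNA is handled by separate systems: excision repair for damaged bases, mismatch repair, homologous recombination and end joining for breaks, and the Fanconi anaemia pathway for crosslinks. Blood stem cells are known to divide rarely and multipotent progenitors more often, so transcripts of replication genes are usually scarcer in the former.

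Affymetrix gene arrays, 12 in all, measured RNA of 4 groups of male mice bred to C57Bl/6 for at least 6 generations, with 3 arrays in each group. Hematopoietic stem cells (HSCs) were sorted from c-Kit-enriched bone marrow as Lineage-, Sca-1+, c-Kit+, CD150+, CD48- cells of Erg +/+ mice and of Erg +/- mice, whose allele had been deleted with a general Cre deleter line. The titles call the Erg +/- samples knock-outs, and the genotype field was followed. Multipotent progenitors (MPPs) carry the sorting label Lineage-, Sca-1+, c-Kit+, CD150-, although another label field repeats the HSC gate for them. The control MPPs were Erg fl/fl and carried no Cre, and the Erg -/- MPPs had lost exon 11, which encodes the DNA-binding domain, through Mx1-Cre, whose promoter responds to interferon in many cell types. All MPP donors were given pIpC, an inducer of interferon, in 5 injections at intervals of 2 days, and the sort followed 2 weeks after injections began. Loss of Erg and presence of Mx1-Cre therefore cannot be told apart in MPPs, and the MPP and HSC groups differ in pIpC, the floxed allele and the sort gate at once. The labels do not name an animal for each sample, so the p-values reflect only how these samples scatter, which could be technical. Erg itself is not analysed here.

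The arrays gave log2 values between 0.939 and 13.4, with array medians of 5.41 to 5.54. The spread was unequal, with interquartile ranges of 2.83 to 2.99 on HSC arrays and 2.50 to 2.84 on MPP arrays. The 4 of 14 HSC-associated markers measured (Mmrn1, Tgm2, Eng and Nupr1) averaged 8.98 to 9.31 on HSC arrays and 5.41 to 5.99 on MPP arrays. The sorted populations thus differed in these markers. Of 9 MPP and early lymphoid markers 3 were measured. Between both MPP and both HSC groups Flt3 differed by 3.49 and Notch1 by -0.14, with a median of 0.06 over the 3. Of the 54 genes, 43 had a mean value above the middle of all genes and 3 were at or below the 25th percentile. No filter on dim probe sets was applied, so all 54 entered every test. The median value of the 54 genes was 7.07 on Erg fl/fl MPP replicate 1 and 6.98 on Erg +/+ HSC replicate 1, against 6.67 to 6.87 on the remaining arrays, while the median of all genes lay between 5.76 and 5.84 throughout. The Gins2 call and the counts of signs over the 54 genes in controls and in MPPs are also given without 1 or both of those arrays. Most values of single genes, such as Orc2, are given only with both.

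For bulk samples of sorted cells, fewer cells of a type and less RNA per cell cannot be told apart. All comparisons below came from one limma model with a mean per group, and a gene was called when its Benjamini-Hochberg adjusted p over 9984 genes was under 0.05.

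The sequences around the starts of these genes were searched for short motifs, which the choice by name did not use. RefSeq promoter windows of 300 bases, 250 before and 50 after each gene's start (GRCm38.p6), matched 47 of the 54 genes and 7756 of all genes tested. An exact E2F-type site, TTTCCCGC or TTTGGCGC on either strand, was present in 10 of 47 (21.3%), against 2.67% of all genes with a window, and in 6 of the 18 replication genes with a window (33.3%). E2F factors are known regulators of genes for DNA synthesis. The 10 genes were Cdt1, Fancg, Mcm7, Msh3, Msh5, Orc3, Pold1, Pole4, Rfc3 and Xrcc6. Windows around the site are shown for 6 of them, from licensing, clamp loading, the Fanconi pathway and mismatch repair, to show how the same letters recur in both orientations. Each reads 5′ to 3′ along the gene's strand, with the match in capitals.
Cdt1 (GRCm38.p6 chr8:122568036-122568064, plus strand): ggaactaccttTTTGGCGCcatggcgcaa
Mcm7 (GRCm38.p6 chr5:138172030-138172059, minus strand): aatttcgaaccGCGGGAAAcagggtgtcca
Orc3 (GRCm38.p6 chr4:34614965-34614994, minus strand): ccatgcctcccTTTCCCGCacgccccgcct
Rfc3 (GRCm38.p6 chr5:151651190-151651219, minus strand): ctttcgcgctcGCGGGAAAactctactgtc
Fancg (GRCm38.p6 chr4:43010335-43010364, minus strand): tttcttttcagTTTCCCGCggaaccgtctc
Msh3 (GRCm38.p6 chr13:92355187-92355216, minus strand): ttgccgtcaagTTTGGCGCgaaatcgcagc
The forward match began 41 bases before the start in Orc3, 52 in Fancg and 202 in Msh3. In Mcm7 the reverse-strand match began 165 bases before it. The matches of Cdt1 and Rfc3 were not upstream: that of Cdt1 began 32 bases after the start and that of Rfc3 at the start. A match is a run of letters and does not show that a factor was bound. The letters CCGGAAGT, an ETS-type site, were found on either strand in 9 of 47 windows (19.1%), in Ercc1, Lig4, Orc3, Pole4, Rad1, Rfc3, Rfc4, Rpa2 and Rpa3, against 6.99% of all genes. CCAAT was present in 22 of 47 windows (46.8%), close to the 42.1% of all genes.

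For 3 genes on which the results below turn, the 250 bases before the start are shown. Pole4 holds an ETS-type and an E2F-type match, and Xrcc5 and Xrcc6 encode the partners of the Ku heterodimer. Matches to the motifs searched are in capitals.
Pole4 (GRCm38.p6 chr6:82652875-82653124, minus strand): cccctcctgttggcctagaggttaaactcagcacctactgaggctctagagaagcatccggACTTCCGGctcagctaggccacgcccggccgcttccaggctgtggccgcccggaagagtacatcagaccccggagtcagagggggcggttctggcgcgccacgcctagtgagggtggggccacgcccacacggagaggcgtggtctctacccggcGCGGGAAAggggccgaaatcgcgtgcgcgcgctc
Xrcc5 (GRCm38.p6 chr1:72307171-72307420, plus strand): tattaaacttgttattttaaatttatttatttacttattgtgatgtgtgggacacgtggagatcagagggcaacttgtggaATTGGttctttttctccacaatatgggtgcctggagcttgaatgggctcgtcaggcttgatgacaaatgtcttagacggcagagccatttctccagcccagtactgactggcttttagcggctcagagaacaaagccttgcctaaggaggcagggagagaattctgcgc
Xrcc6 (GRCm38.p6 chr15:82016119-82016368, plus strand): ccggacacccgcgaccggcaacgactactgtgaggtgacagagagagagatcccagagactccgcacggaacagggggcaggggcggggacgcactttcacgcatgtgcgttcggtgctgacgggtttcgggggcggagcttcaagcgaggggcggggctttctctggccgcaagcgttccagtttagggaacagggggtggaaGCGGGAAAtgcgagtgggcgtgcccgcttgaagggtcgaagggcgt
The windows of the Ku partners differ in composition. That of Xrcc5 has 44.8% G and C and 5 CpG pairs, with CCAAT on the reverse strand as its match. That of Xrcc6 has 65.2% G and C, 25 CpG pairs and an E2F-type match. The longer window searched for Xrcc6 also holds CCAAT, after the start and so outside the bases shown. Both Ku partners thus have a CCAAT match, and the E2F-type match is the one that differs. Pole4 has 67.6% G and C and 24 CpG pairs.

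Among mice with intact Erg function, Gins2 was the 1 gene of the 54 called between Erg fl/fl MPPs and Erg +/+ HSCs. It was higher in MPPs. In this comparison 1.28% of all genes were called. Gins2 encodes a subunit of the GINS complex, which joins the MCM helicase when an origin fires. It read 7.23, 7.35 and 6.78 on the Erg +/+ HSC arrays, 7.60, 7.73 and 7.01 on the Erg +/- HSC arrays, 8.42, 8.52 and 8.81 on the Erg fl/fl MPP arrays, and 7.32, 8.57 and 8.33 on the Erg -/- MPP arrays. The control MPP arrays lay wholly above both HSC groups, and 1 Erg -/- MPP array, replicate 1, lay within the HSC range. The group means were 7.12 ± 0.298 in Erg +/+ HSCs and 8.58 ± 0.199 in Erg fl/fl MPPs (SD, n = 3). The difference of 1.47 (SE 0.306), a 2.76-fold higher signal, had an adjusted p of 0.0375 in limma. This call was lost when any 1 of the 6 arrays compared was left out, with differences of 1.30 to 1.58, and with both arrays of high median omitted (replicate 1 of each control group) it was lost as well (adjusted p = 0.10, limma).

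**Figure D1:**
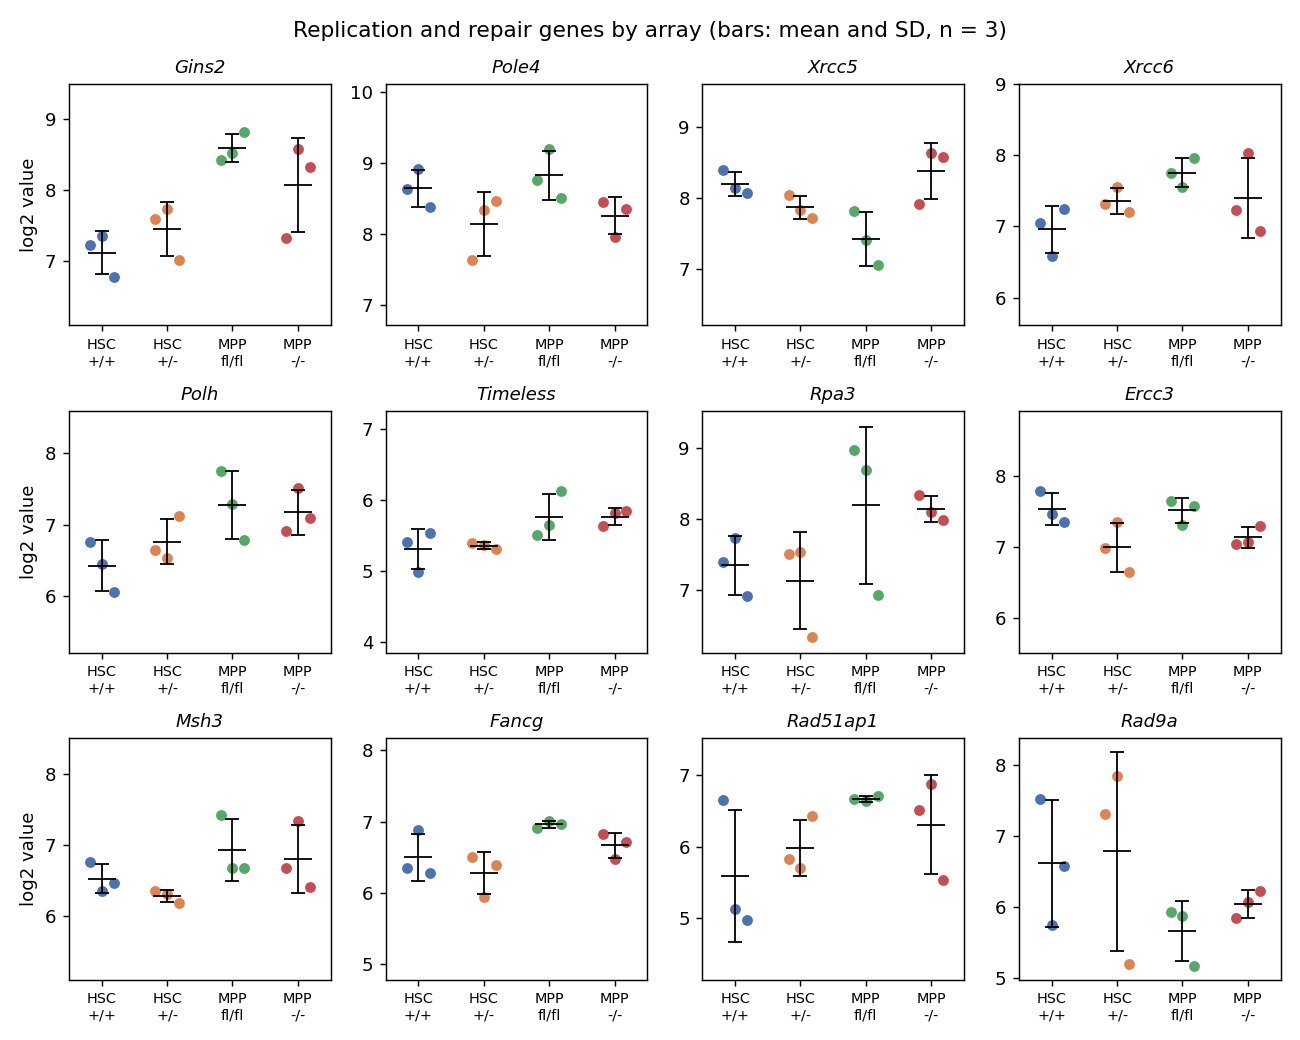
Log2 values of 12 replication and repair genes on the 12 arrays (y axis, log2; every panel spans the same range, and levels are not comparable between panels), by group on the x axis, with the mean and SD of 3 arrays as bars. Gins2 and Xrcc6 sit higher in Erg fl/fl MPPs than in Erg +/+ HSCs, Xrcc5 sits lower there and higher in Erg -/- MPPs, and Rad9a, Rad51ap1 and Rpa3 show wide spread within groups.

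The other licensing and helicase genes measured were Orc2, Orc3 and Orc4 of the origin recognition complex, Cdt1, and the helicase subunits Mcm2 and Mcm7. Together with Gins2, 6 of these 7 had a control difference above 0, where 62.4% of all genes did. The median was 0.28 over the 7, against 0.12 over all genes. Orc2 read 7.23, 7.47 and 6.89 on Erg +/+ HSC arrays against 8.17, 7.47 and 7.52 on Erg fl/fl MPP arrays. The nearest Orc2 arrays of the groups were equal to 2 decimals, with no overlap in the unrounded values, and the difference of 0.52 had an unadjusted p of 0.0364 and did not pass adjustment (limma). Mcm2 differed by 0.36 and Mcm7 by -0.09, neither called.

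Clamp loading and single-strand binding came next. Rfc4, a subunit of the clamp loader that places the sliding clamp on DNA, read 6.96, 5.89 and 6.09 in Erg +/+ HSCs and 7.62, 7.28 and 6.91 in Erg fl/fl MPPs, a difference of 0.96 (SE 0.409, adjusted p = 0.201, limma) with overlapping groups. The loader subunits Rfc3 and Rfc5 differed by 0.75 and -0.08. Rpa3, the small subunit of replication protein A, which coats single-stranded DNA, read 7.40, 7.73 and 6.91 in Erg +/+ HSCs and 8.97, 8.69 and 6.93 in Erg fl/fl MPPs. One control MPP array thus lay in the HSC range, and the difference of 0.85 was not called (adjusted p = 0.297, limma). Between Erg -/- MPPs (8.34, 8.10 and 7.98) and Erg +/- HSCs (7.51, 7.54 and 6.34) the Rpa3 groups did not overlap, and the difference of 1.01 was not called either (adjusted p = 0.446, limma).

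Timeless, which protects the replication fork, read 5.40, 4.99 and 5.54 in Erg +/+ HSCs, 5.40, 5.36 and 5.30 in Erg +/- HSCs, 5.50, 5.65 and 6.12 in Erg fl/fl MPPs, and 5.63, 5.82 and 5.84 in Erg -/- MPPs. The Timeless groups overlapped by 1 array in the control pair and were wholly apart in the Erg-reduced pair, and the difference was about the same in both, 0.45 and 0.41. Over both pairs the Timeless difference was 0.43 (SE 0.139, adjusted p = 0.0938, limma). Nucleotide supply gave Dut, which keeps uracil out of DNA, at 0.22, and Rrm2b, a ribonucleotide reductase subunit, at -0.28 in controls, neither called.

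Among repair genes none was called in controls. Polh, a polymerase that copies past ultraviolet damage, read 6.76, 6.45 and 6.05 in Erg +/+ HSCs and 7.75, 7.29 and 6.79 in Erg fl/fl MPPs. The Polh groups did not overlap, and the difference was 0.85 (adjusted p = 0.121, limma). Rad51ap1, a gene of homologous recombination, was spread from 4.96 to 6.65 in Erg +/+ HSCs and lay between 6.64 and 6.71 in Erg fl/fl MPPs, a difference of 1.09 (adjusted p = 0.166, limma). Of the 5 recombination genes, Rad51d and Rad52 lay lower in control MPPs, by -0.68 and -0.55, and neither was called.

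Rad51d read 7.26, 6.49 and 7.57 in Erg +/+ HSCs, 6.70, 6.87 and 6.86 in Erg +/- HSCs, 6.59, 6.62 and 6.07 in Erg fl/fl MPPs, and 6.61, 6.68 and 6.24 in Erg -/- MPPs. Rad51d also acts in homologous recombination, and only the Erg-reduced pair of groups was wholly apart. Rad52, an annealing protein of recombination, read 8.10, 7.94 and 6.96 in Erg +/+ HSCs, 7.40, 7.99 and 7.46 in Erg +/- HSCs, 7.13, 7.29 and 6.93 in Erg fl/fl MPPs, and 7.38, 7.34 and 6.94 in Erg -/- MPPs. Again the Erg-reduced groups did not overlap and the control groups did. Over both pairs the difference was -0.49 for Rad51d (adjusted p = 0.109) and -0.48 for Rad52 (adjusted p = 0.132, limma).

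The Fanconi anaemia genes were Fancb, Fancc, Fancf, Fancg and Fancl, parts of the complex that ubiquitinates its target at crosslinks, and Fancm, a translocase that recruits it. In controls 5 of 6 had a difference above 0, where 62.4% of all genes did. Fancb stood at 0.90, Fancm at 0.59 and Fancg at 0.46, and none of the 6 was called by limma. Fancm read 5.17, 5.51 and 5.11 in Erg +/+ HSCs, 4.47, 5.71 and 4.70 in Erg +/- HSCs, 6.00, 5.85 and 5.70 in Erg fl/fl MPPs, and 5.43, 6.02 and 5.35 in Erg -/- MPPs. Control MPPs were wholly above control HSCs for Fancm, and the Erg-reduced groups overlapped. Its difference over both pairs was 0.61 (adjusted p = 0.0962, limma).

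Among mismatch and meiotic MutS proteins, Msh3, which recognises small loops, read 6.76, 6.35 and 6.47 in Erg +/+ HSCs, 6.35, 6.31 and 6.18 in Erg +/- HSCs, 7.43, 6.68 and 6.68 in Erg fl/fl MPPs, and 6.68, 7.33 and 6.40 in Erg -/- MPPs. The Erg-reduced groups were wholly apart for Msh3 and the control groups overlapped. Its difference over both pairs was 0.46 (adjusted p = 0.120, limma). Msh4, a meiotic protein, was dim, between 3.41 and 3.64 on the 6 HSC arrays and between 3.66 and 4.01 on the 6 MPP arrays. Msh4 was the 1 gene of the 54 whose HSC and MPP arrays were wholly apart over all groups (2.77% of all genes were), and its difference of 0.29 was not called (adjusted p = 0.109, limma).

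Rad9a, part of the checkpoint clamp that signals damage, had the largest spread within groups, with a pooled SD of 0.862 against a median of 0.277 over all genes and 0.341 over the 54. It read 7.52, 5.75 and 6.57 in Erg +/+ HSCs, 7.31, 7.85 and 5.20 in Erg +/- HSCs, 5.93, 5.87 and 5.17 in Erg fl/fl MPPs, and 5.84, 6.07 and 6.22 in Erg -/- MPPs. HSC arrays were scattered across the MPP range and beyond it, and the population difference of -0.85 was not called (adjusted p = 0.174, limma). Rad21l, a meiotic cohesin subunit, had 4.16 on 1 control MPP array and 4.68 on 1 Erg -/- MPP array, against 2.66 to 3.11 on the remaining 10.

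Counted together, 11 of the 54 genes had an unadjusted p under 0.05 between control MPPs and control HSCs (limma), where 22.3% of all genes did. The 9 higher ones (14.4% of all genes) were Fancb, Fancg, Gins2, Orc2, Polh, Rad51ap1, Rfc4, Timeless and Xrcc6, and the 2 lower ones (7.91% of all genes) were Rad51d and Xrcc5. Groups were wholly apart for 10 of the 54, against 27% of all genes, with 9 higher (18.5% of all genes) and Xrcc5 lower (8.54%). Of the 54 differences 36 were above 0, where 62.4% of all genes were. The median was 0.18 against 0.12 over all genes. Median centring brought the count above 0 to 31 and the medians to 0.08 and 0.02, and leaving out Erg fl/fl MPP replicate 1 gave 31 and medians of 0.12 and 0.12. Both shares and medians thus sat near those of all genes.

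For the Erg-reduced pair, Erg -/- MPPs against Erg +/- HSCs, limma called 0 of the 54, and 0.12% of all genes. One, Fancm at 0.64, had an unadjusted p under 0.05, as 3.85% of all genes did. Msh3, Msh4, Msh5, Rpa3 and Timeless were higher with groups wholly apart, 5 of 54 against 14.7% of all genes, and Polk, Rad51d and Rad52 were lower, 3 of 54 against 5.47%. Differences above 0 numbered 35 of 54, against 59.9% of all genes. The median difference was 0.07, against 0.10 over all genes. This pair shares no array with the control pair, and the 54 genes had the same sign in both pairs in 72.2% of cases, against 74.9% of all genes, with a Pearson r across genes of 0.65 against 0.58. Genes are not independent replicates, and these values describe the arrays. Averaging both MPP groups and both HSC groups, limma called 0 of 54 (0.3% of all genes), with Gins2 nearest at 1.05 (SE 0.216, adjusted p = 0.0597). At an unadjusted p under 0.05, 15 of the 54 passed, where 31.7% of all genes did.

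**Figure D2:**
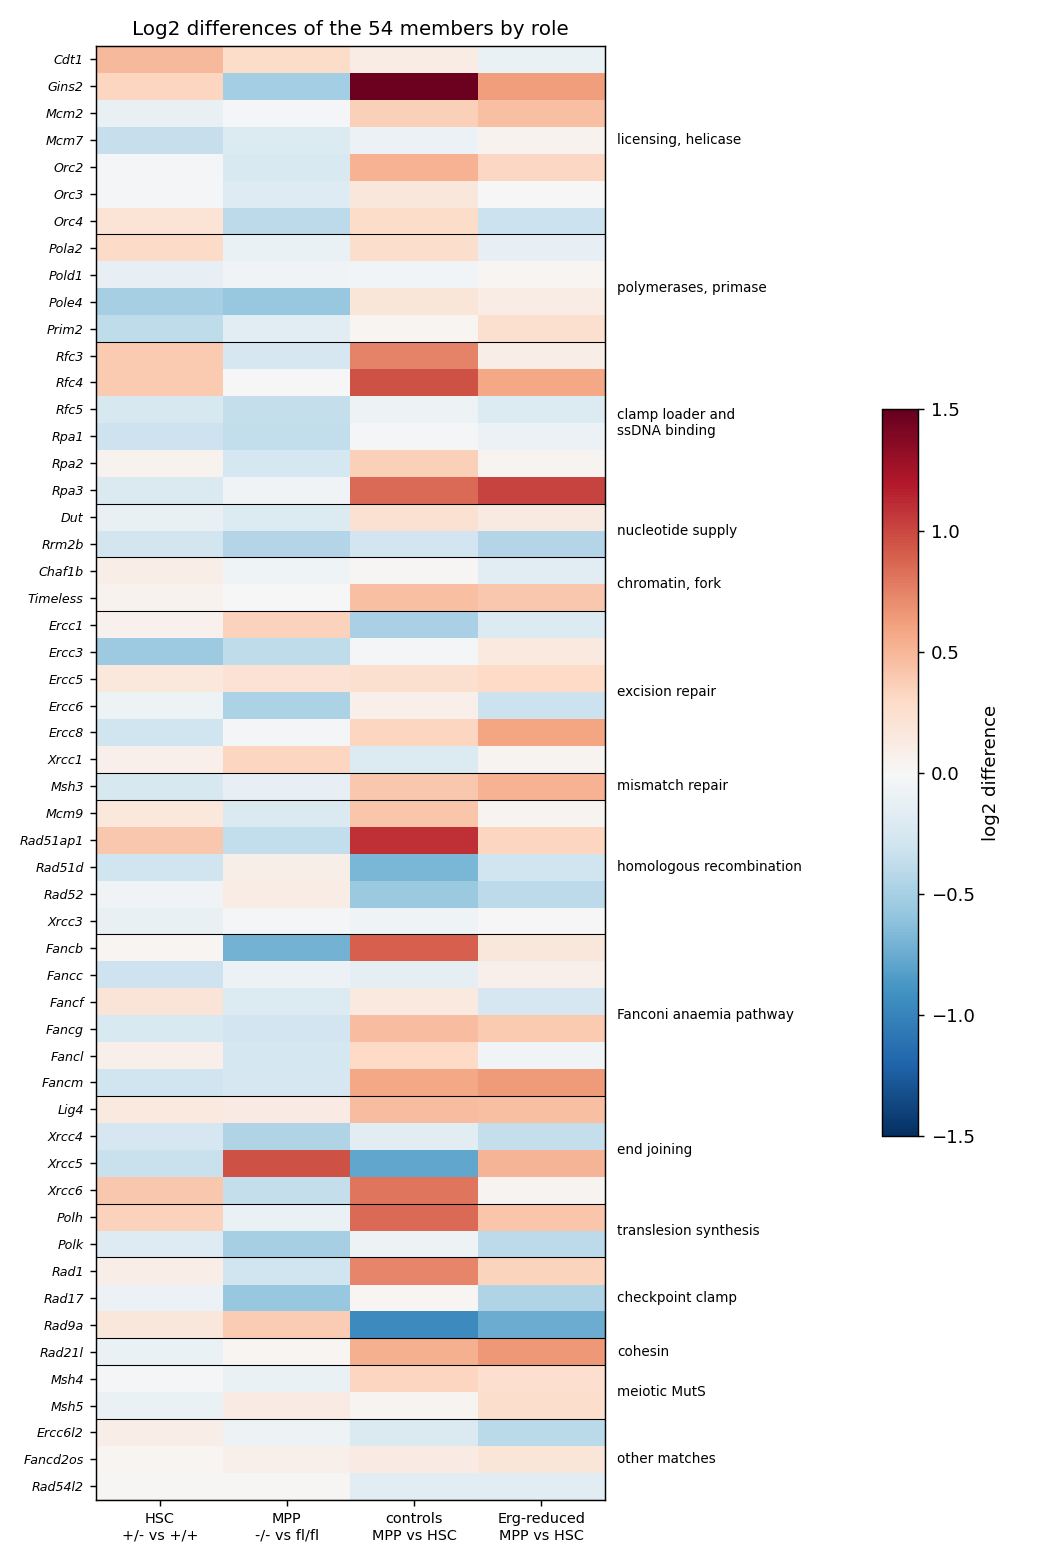
Log2 differences of the 54 genes (rows, grouped by role) in 4 comparisons (columns). Red is higher and blue lower in the first-named group, on a scale from -1.5 to 1.5. Gins2 and Rad51ap1 are the darkest red cells between the control populations, at 1.47 and 1.09, and the cells of the MPP column are mostly pale blue.

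Between Erg +/- and Erg +/+ HSCs limma called 0 of the 54 genes, with 0.02% of all genes called. One, Ercc3, had an unadjusted p under 0.05, where 6.32% of all genes did. Ercc3 is a helicase of the TFIIH complex, which opens DNA for excision repair. Its values were 7.79, 7.46 and 7.36 in Erg +/+ HSCs and 6.98, 7.35 and 6.65 in Erg +/- HSCs, so the groups were apart by a narrow gap. The Ercc3 difference was -0.54 (SE 0.202, adjusted p = 0.745, limma). Ercc3, Msh3 and Xrcc5, all lower in Erg +/- HSCs, were the 3 genes of 54 whose groups were wholly apart, where 4.38% of all genes were lower in that way.

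The remaining HSC genes with the smallest p-values in either direction were not called. Pole4, an accessory subunit of the leading-strand polymerase, read 8.64, 8.91 and 8.39 in Erg +/+ HSCs and 7.63, 8.34 and 8.47 in Erg +/- HSCs, a difference of -0.50 with a 95% interval from -1.06 to 0.06. Prim2, the large primase subunit, differed by -0.38. In the other direction Cdt1 differed by 0.48, with 7.49 on 1 Erg +/- array and 5.87 on another, Xrcc6 by 0.40 and Polh by 0.34. None passed adjustment in limma. Of the 54 differences 25 were above 0, against 53.8% of all genes, with medians of -0.02 and 0.02. Erythroid markers averaged 5.90 to 6.25 on Erg +/+ and 6.62 to 6.89 on Erg +/- HSC arrays (9 of 11 measured). Of these 8 were higher in Erg +/- HSCs, and Hemgn was lower, by -0.89. The 4 of 9 endothelial and stromal markers measured averaged 6.13 to 6.96 and 5.17 to 5.33. The part of both marker lists in these differences was not tested.

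Between Erg -/- and Erg fl/fl MPPs limma also called 0 of the 54 genes, with 0.0801% of all genes called. At an unadjusted p under 0.05 stood 4 genes, where 4.79% of all genes did: Xrcc5 higher, and Pole4, Polk and Rad17 lower in Erg -/- MPPs. Xrcc5 encodes the larger Ku subunit, Ku80, and Ku holds broken ends for joining. It read 7.81, 7.41 and 7.05 in Erg fl/fl MPPs and 7.92, 8.63 and 8.58 in Erg -/- MPPs. The groups did not overlap, and the difference of 0.95 (SE 0.235), or 1.93-fold, had an adjusted p of 0.455 (limma).

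Pole4 read 8.77, 9.20 and 8.51 in Erg fl/fl MPPs and 8.46, 7.96 and 8.35 in Erg -/- MPPs. The Pole4 groups did not overlap, at a difference of -0.57 with a 95% interval from -1.13 to -0.01 (adjusted p = 0.998, limma). Polk, a translesion polymerase, read 6.71, 6.70 and 6.18 in Erg fl/fl MPPs and 5.93, 6.03 and 6.14 in Erg -/- MPPs. The Polk groups were apart by a narrow gap and differed by -0.50. Rad17, which loads the checkpoint clamp, read 6.96, 6.20 and 6.38 in Erg fl/fl MPPs and 5.75, 5.87 and 6.22 in Erg -/- MPPs. Those groups overlapped, and the difference was -0.57. Gins2 differed by -0.51, with a 95% interval from -1.18 to 0.15.

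Fancb had the lowest MPP difference, -0.70, from 6.03, 6.10 and 5.06 in Erg fl/fl MPPs and 5.10, 4.89 and 5.09 in Erg -/- MPPs. One Erg fl/fl array lay within the Erg -/- range, and the unadjusted p was 0.0554 (limma). Fancg, at 6.90, 7.01 and 6.96 against 6.82, 6.47 and 6.71, was wholly apart with a difference of -0.29. Groups were wholly apart, with lower values in Erg -/- MPPs, for Ercc3, Fancg, Mcm9, Pole4 and Polk, 5 of 54 against 6.1% of all genes. Msh5 and Xrcc5 were wholly higher, 2 of 54 against 4.36%.

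The signs of the MPP differences leaned one way. Of the 54 genes 39 were below 0, against 50.6% of all genes, with a median of -0.15 against 0.00 over all genes. Repeating quantile normalization moved both: 30 of the 54 were then below 0, against 41.9% of all genes, and the medians were -0.07 and 0.05. Erg fl/fl MPP replicate 1 had the highest median value over these genes of all arrays. Without it the count below 0 was 33, against 53.6% of all genes, and the median differences were -0.08 and -0.02. Replication roles gave 18 of 21 below 0 (13 after repeated quantile normalization and 15 without that array, beside the same 41.9% and 53.6% of all genes). The 4 polymerase and primase genes were all below 0, with 2 of 4 below 0 after repeated quantile normalization. The 6 Fanconi genes were below 0 with the deposited values, after median centring, after repeated quantile normalization and without that array, with a median of -0.26 as deposited. These are counts of signs among genes that limma did not call, and they carry no test.

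**Figure D3:**
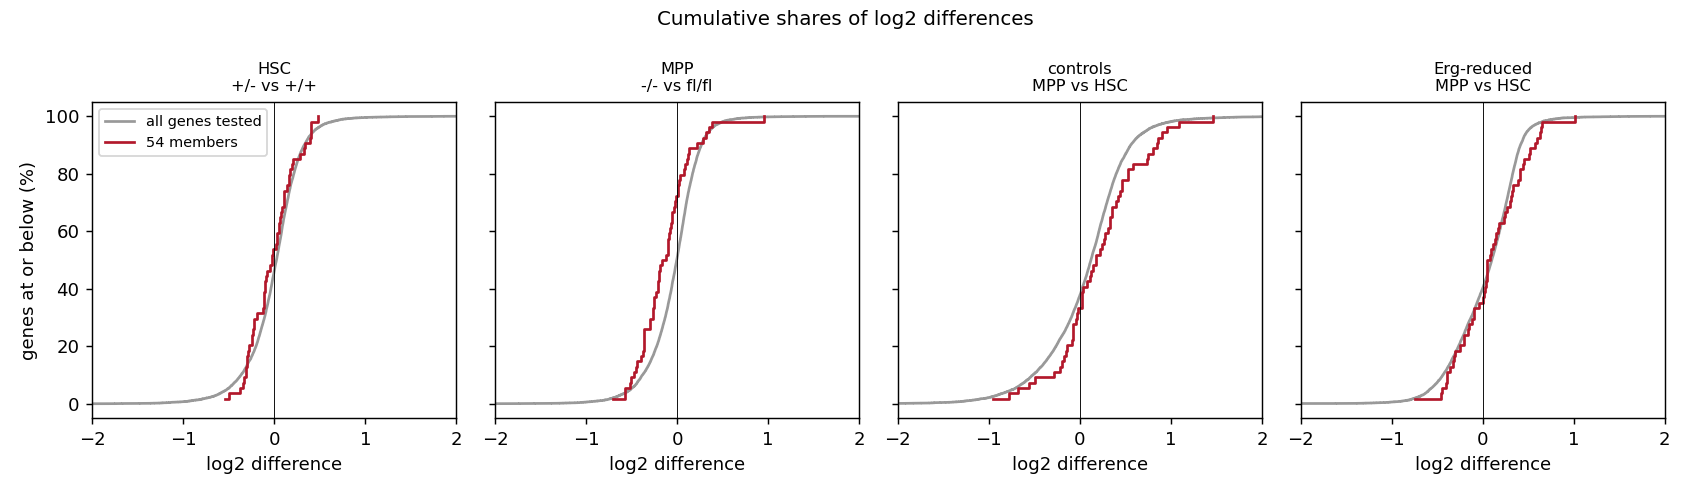
Cumulative share (y axis, percent) of the 54 genes and of the 9984 genes tested at or below each log2 difference (x axis), in 4 comparisons, with axes that end at -2 and 2. In MPPs the curve of the 54 genes lies to the left of that of all genes around 0, at 72.2% against 50.6% below 0, and in the other panels the curves run close together around 0.

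Average values of markers of other cell types differed between the MPP groups. The 5 of 7 B lineage markers measured averaged 6.70 to 7.26 on Erg fl/fl and 4.97 to 5.38 on Erg -/- MPP arrays. The 3 of 10 granulocyte-macrophage markers averaged 7.01 to 7.53 and 5.55 to 5.93. Nkg7 differed by -3.05 and Cebpe by 0.26 there, with a median of -1.65 over the 3. The 4 of 5 mast cell and basophil markers averaged 5.69 to 6.59 and 4.87 to 5.27. Mcpt8 differed by -3.54 and Il6ra by 0.09, with a median of -0.50 over the 4. Interferon-response genes, 5 of 13 measured, averaged 5.23 to 5.33 and 5.44 to 5.94. Their part in the MPP differences and in the control difference of Gins2 was not tested.

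The HSC and MPP comparisons share no array, so their signs can be set side by side. Both differences were below 0 for 24 of the 54 genes (44.4%, against 25.7% of all genes) and both above 0 for 10 (18.5%, against 28.9%). In HSCs 29 of the 54 were below 0 (53.8% of all genes were above 0). In MPPs 39 were below 0 (50.6% of all genes were). The count below 0 in both follows in part from these single counts, without any link between the comparisons. Pole4, at -0.50 and -0.57, and Ercc3, at -0.54 and -0.38, were the lowest in HSCs and below 0 in MPPs, and Cdt1, at 0.48 and 0.28, was the highest in HSCs and above 0 in both. The correlation of the differences across the 54 genes was weak, with a Pearson r of 0.10 against 0.13 over all genes. After repeated quantile normalization both were below 0 for 17 of 54 (31.5%, against 21.1% of all genes), and without Erg fl/fl MPP replicate 1 for 21 (38.9%, against 25.6%).

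**Figure D4:**
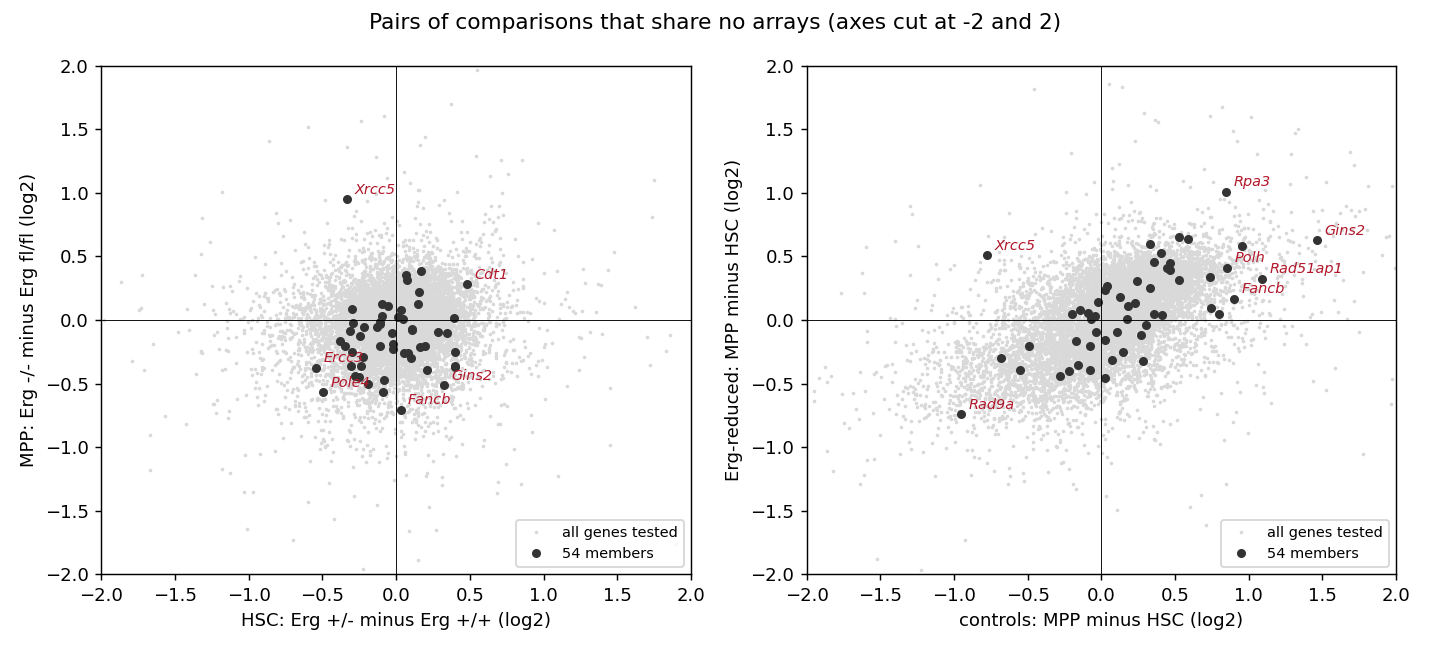
Log2 differences of the 54 genes (dark points) and all genes tested (grey points) in 2 pairs of comparisons that share no arrays, the Erg genotypes in HSCs (x) against those in MPPs (y) on the left and the population difference in controls (x) against that in Erg-reduced cells (y) on the right. Axes end at -2 and 2, which leaves out 14 genes on the left and 38 on the right, 0 of them among the 54. Among the 54, Xrcc5 stands alone at the upper left of both panels, and Pole4 and Ercc3 lie at the lower left of the first.

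The differences of the Ku partners between Erg genotypes had opposite signs in both populations, and neither gene was called. Xrcc5 read 8.39, 8.13 and 8.07 in Erg +/+ HSCs and 8.05, 7.83 and 7.72 in Erg +/- HSCs, a difference of -0.33, beside its 0.95 in MPPs. The MPP difference minus the HSC difference was 1.28 (SE 0.333) with an unadjusted p of 0.00217 and an adjusted p of 0.748 (limma). In this test of unequal differences 0 of the 54 and 0.02% of all genes were called, and Xrcc5 was the 1 of 54 with an unadjusted p under 0.05, where 3.88% of all genes had one. Xrcc6, which encodes the smaller Ku subunit, Ku70, read 7.05, 6.59 and 7.24 in Erg +/+ HSCs, 7.32, 7.55 and 7.20 in Erg +/- HSCs, 7.75, 7.56 and 7.96 in Erg fl/fl MPPs, and 7.23, 8.03 and 6.94 in Erg -/- MPPs.

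Only the control groups of Xrcc6 were wholly apart, with a difference of 0.80 (adjusted p = 0.128, limma), where Xrcc5 differed by -0.78 (adjusted p = 0.107, limma). In Erg-reduced cells the differences were 0.04 for Xrcc6 and 0.51 for Xrcc5. For Xrcc6 the MPP difference minus the HSC difference was -0.76, with an unadjusted p of 0.0668 (limma). Lig4 and Xrcc4, which form the ligase complex that seals the joined ends, differed in MPPs by 0.12 and -0.45 and were not called. No value here sets the level of one Ku transcript against the other, since they come from different probe sets.

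Genes of the same processes whose names fall outside the pattern were listed separately. Of 34 other replication genes 12 were measured, and limma called 0 of them in any comparison. In controls 9 of 12 lay above 0, against 62.4% of all genes, with a median of 0.40 against 0.12 over all genes. In MPPs 10 of 12 lay below 0, with a median of -0.22, against 50.6% of all genes below 0 (7 of 12, against 41.9%, after repeated quantile normalization). Top2a, the topoisomerase of dividing cells, had the lowest MPP difference of these, -1.43 (SE 0.622, adjusted p = 0.998, limma).

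Of 77 other repair and damage response genes 49 were measured. Between control MPPs and control HSCs limma called 3 of them, where 1.28% of all genes were called. Ung, which removes uracil from DNA, rose by 0.83 (adjusted p = 0.0379), Prkdc, the kinase that Ku recruits to broken ends, rose by 0.81 (adjusted p = 0.0435), and Ogg1, which removes oxidised guanine, fell by 1.23 on the log2 scale (adjusted p = 0.0375, limma). In the remaining comparisons 0 of the 49 were called.

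Mitosis and cell cycle entry genes were sparsely measured. Plk1, a mitotic kinase, rose by 2.24 in control MPPs (adjusted p = 0.0375, limma), 1 called of 7 measured mitosis genes of 46 listed, beside 1.28% of all genes. In that comparison 6 of the 7 were above 0, against 62.4% of all genes, with a median of 1.07 against 0.12 over all genes. In Erg -/- against Erg fl/fl MPPs all 7 were below 0, against 50.6% of all genes, with a median of -0.24 and 0 called. All 7 were also below 0 after median centring, after repeated quantile normalization (median -0.12) and without Erg fl/fl MPP replicate 1. Of 28 E2F and cell cycle entry genes 10 were measured and limma called 0 of them in any comparison. The median difference of those 10 in controls was 0.41, against 0.12 over all genes, and in Erg -/- against Erg fl/fl MPPs it was -0.01. The 10 genes of the pattern with an E2F-type match had a median of 0.18 in controls, the same as the 0.18 over all 54. There 8 of the 10 were above 0, beside 36 of 54 and 62.4% of all genes. In MPPs their median was -0.20, beside -0.15 over all 54. Below 0 in MPPs were 8 of the 10, beside 39 of 54 and 50.6% of all genes. The 9 genes with an ETS-type match had a median of 0.47 in controls, with 8 above 0 (62.4% of all genes). In MPPs their median was -0.19, with 6 below 0 (50.6% of all genes). Between HSC genotypes it was 0.07, with 6 above 0 (53.8% of all genes). A link of the differences to either motif was not tested. These counts are given for the deposited values only.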

How the data were processed

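Each of 12 samples was hybridised to 1 Affymetrix gene array after amplification of 20 ng of total RNA and labelling of 2.5 µg of cDNA, per the labels' protocols. The deposited log2 values were made with RMA and affy, which the submitters' processing notes list with no version. RMA fits a common distribution to arrays it normalizes together, so there a difference is relative to most genes and small signals give compressed folds. The deposited arrays did not share 1 distribution, with interquartile ranges of 2.83 to 2.99 for HSCs and 2.50 to 2.84 for MPPs. Repeating the quantile step moved the median control difference of all genes from 0.12 to 0.03. Joint normalization of all arrays and the annotation's build are not given in the sources used here. Arrays have no read depth, and their number limits precision.

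Of 18719 probe sets 10657 have 1 symbol, 523 several and 7539 none listed, and the set of highest mean stood for each gene. One fit (limma 3.58.1, R 4.3.3) of 4 group means without covariates gave two-sided tests, adjusted over 9984 genes by Benjamini-Hochberg. SE is moderated. Exact permutation of 3 against 3 arrays cannot go below p = 0.10, so it was not used. The fit was tested on simulated data. Alternatives changed the replicate block, filter (25th or 50th percentile of mean value), probe set choice, scaling (median centring or another quantile step), moderation, weights and the arrays entered.

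The genes, lists, naming rule and alternatives were chosen with earlier results of these data known. Genes named are those called, the 3 smallest p per comparison and direction, the smallest p per role over both pairs, members of roles described in full and, in other lists, called genes or the 2 smallest p. Per-array values of Fancb, Fancg, Orc2, Rfc4, Rad51ap1 and Rad21l, and Top2a, were added after seeing them. Deviations of same-numbered arrays from their group means correlated at -0.0852 to 0.104, and at 0.0313 to 0.104 between the control groups. Differently numbered arrays correlated at -0.119 to 0.131. Such values cannot show whether the numbers pair samples, and the main fit did not pair them.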

Additional observations from a re-analysis of the deposited data

Results flagged for a closer look

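Xrcc5 was singled out because its differences between Erg genotypes went opposite ways in the HSC and MPP samples. Every Erg +/- HSC array lay below every Erg +/+ HSC array, at a difference of -0.33, and every Erg -/- MPP array lay above every Erg fl/fl MPP array, at 0.95. The test of the difference between the pairs gave 1.28, with an unadjusted p of 0.00217 and an adjusted p of 0.748 (limma). Among all genes, 31 of 9984 (0.31%) were wholly apart in opposite directions in the same way. With 1 array left out in turn, the MPP difference lay between 0.76 and 1.18 and the difference between the pairs between 1.10 and 1.51.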

How the results depend on the processing

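Between control MPPs and control HSCs, Gins2 was the 1 call among the 54 genes. That call was lost (0 called) under median centring (difference 1.37, adjusted p = 0.0522) and with all probe sets tested (adjusted p = 0.122, limma). It was also lost with replicate 1 of each control group omitted (adjusted p = 0.10, limma). Over the fits that leave out 1 array each, between 0 and 1 genes of the 54 were called there, and each of the 6 arrays compared ended the call, with adjusted p from 0.0528 to 0.120. In the comparison of both MPP with both HSC groups, 1 gene, Gins2, was called with genes below the 50th percentile removed (adjusted p = 0.0472), with quantile normalization repeated (adjusted p = 0.0360) and with array weights (adjusted p = 0.0491), and between 0 and 1 with 1 array left out. With the replicate number as a block, Gins2 kept its call in controls (adjusted p = 0.0469) and stood at 0.0636 over both pairs, and no count of called genes changed. The count of MPP differences above 0 was 15 of 54, and between 13 and 21 with 1 array left out. Under the other alternatives it lay between 10 and 24, with 24 when quantile normalization was repeated. The 10 came from the filter at the 50th percentile, which kept 43 of the 54 genes and left their differences unchanged. Medians of the 54 differences that lay near 0 changed sign: from -0.06 to 0.03 with 1 array left out and from -0.05 to 0.003 under the other alternatives between HSC genotypes, from -0.004 to 0.19 with 1 array left out in the Erg-reduced pair, and from -0.14 to 0.001 with 1 array left out for the MPP minus HSC difference. The median stayed below 0 in MPPs and above 0 in controls under the alternatives run. The fit on only the arrays compared was not run for the comparisons that use all arrays. Signal over background was not available for single arrays, and 3 arrays per group limit every comparison.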

Other observations

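For the 2 genes of the 54 with more than 1 single-symbol probe set, estimates varied between probe sets, and limma called none of these sets. Rad54l2 encodes a helicase-like protein named for its resemblance to Rad54. Between control MPPs and control HSCs its set of higher signal differed by -0.17 (SE 0.154) and its other set by -1.23 (SE 0.634). For Rad21l the differences of the 2 sets were 0.53 (SE 0.499) and -0.03 (SE 0.154).

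Other replication and repair genes outside the name pattern had small p-values over both pairs of populations without a call by limma. Rnaseh2c, a subunit of the enzyme that removes ribonucleotides from DNA, differed by 0.62 (adjusted p = 0.0779), and Mms22l, which acts at stalled forks, by 0.41 (adjusted p = 0.121). Cdca8, part of the chromosomal passenger complex, differed by 1.53 (adjusted p = 0.0613), Rbl1, a pocket protein that binds E2F factors, by 0.57 (adjusted p = 0.0944), and Ccne1, a cyclin of the entry into DNA synthesis, by 0.49 (adjusted p = 0.112, limma).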
